A study of Mus musculus with 12 samples.

Results

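The genes of MHC antigen presentation described here were 10 genes of the 16821 listed in the liver FPKM files, taken as the rows whose gene symbol was H2-K1, H2-D1, B2m, Tap1, Tap2 or Nlrc5 for class I (6 genes) and H2-Aa, H2-Ab1, H2-Eb1 or Cd74 for class II (4 genes). Liver RNA came from 12 adult male C57BL/6J mice, with no genetic modification named, whose livers were perfused with saline. The sedentary control (Con) group held 6 mice, and the chronic exercise (Exe) group held 6 mice trained for 6 weeks by moderate treadmill running. Each mouse gave a library of whole liver and is named by its group and number (Con 1, Exe 5), and the labels name no other difference between the groups. FPKM gives the fragments of a gene relative to the length of its transcript and to all fragments of the library. All 10 genes were above 0 in every mouse and passed the filter for testing, which asked for 1 FPKM or more in 6 or more mice.

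Class I molecules sit on nearly every nucleated cell and show peptides cut from proteins of the cell's own cytosol to CD8 T cells. Their heavy chains, H2-K1 and H2-D1 in the H2-b haplotype of C57BL/6J mice, pair with beta-2 microglobulin (B2m) and are filled with peptides that the Tap1 and Tap2 transporter carries into the endoplasmic reticulum, and Nlrc5 is the transactivator of these genes. Class II molecules pair an alpha with a beta chain (H2-Aa with H2-Ab1, and the beta chain H2-Eb1) and show peptides of taken-up proteins to CD4 T cells. They are made chiefly by macrophages, dendritic cells and B cells, under the transactivator Ciita, and are held ready for loading by the invariant chain Cd74. In the liver the resident macrophages are Kupffer cells, while hepatocytes make most of the RNA.

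The promoters of these genes are known for a shared module, read by a factor complex on which Nlrc5 and Ciita act, in which an X box with an X2 element (TGACG) stands upstream of a Y box (CCAAT, read as ATTGG on the other strand). RefSeq's promoter table of build GRCm38.p6 held entries for 6 of the 10 genes, H2-K1 with 2 entries of which the first was used, and none for Tap2, Nlrc5, H2-Ab1 and Cd74. The last 180 bases before the annotated start are shown for 4 genes, because they set the class I heavy chains beside their light chain and a class II chain. Each runs from 5′ to 3′ on the strand of its gene, and capitals mark the letters of the motifs counted in the next paragraph, on either strand. H2-K1 was read from chr17:34000348-34000527 on the minus strand, H2-D1 from chr17:35262914-35263093 on the plus strand, B2m from chr2:122147507-122147686 on the plus strand and H2-Aa from chr17:34287824-34288003 on the minus strand.
H2-K1: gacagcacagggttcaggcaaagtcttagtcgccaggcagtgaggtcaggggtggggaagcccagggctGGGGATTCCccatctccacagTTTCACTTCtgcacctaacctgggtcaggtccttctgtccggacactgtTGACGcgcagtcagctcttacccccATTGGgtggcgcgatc
H2-D1: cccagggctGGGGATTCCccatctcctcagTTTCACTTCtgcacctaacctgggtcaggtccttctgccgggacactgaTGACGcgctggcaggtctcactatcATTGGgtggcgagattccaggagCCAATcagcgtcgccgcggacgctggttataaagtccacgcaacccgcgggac
B2m: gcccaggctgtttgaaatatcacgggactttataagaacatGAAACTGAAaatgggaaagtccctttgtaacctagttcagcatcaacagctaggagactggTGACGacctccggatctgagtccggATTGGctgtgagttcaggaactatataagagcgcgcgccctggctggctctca
H2-Aa: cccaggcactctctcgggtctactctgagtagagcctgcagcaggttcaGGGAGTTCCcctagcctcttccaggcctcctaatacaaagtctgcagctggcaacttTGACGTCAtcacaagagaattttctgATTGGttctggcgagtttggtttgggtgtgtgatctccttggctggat
In H2-K1, H2-D1 and B2m the TGACG began 25 bases before an ATTGG, and in H2-Aa 26 bases before it. In H2-Aa the letters TGACGTCA hold TGACG on both strands, overlapping. H2-K1 and H2-D1 had an unbroken run of 40 bases in common, which held GAANNGAAA on the other strand (TTTCACTTC), while the longest run any other pair of the 6 windows had in common was 10 bases.

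Over the whole promoter entries, 250 bases before to 50 after the start, CCAAT on either strand was found in all 6 genes and in 37.41% of the 32851 promoters in the table. TGACG was found in 5 of the 6 genes, without H2-Eb1, and in 20.81% of all promoters. TGACG followed by ATTGG at 24 to 27 bases, a spacing chosen after these promoters were seen, was found in 4 of the 6 and in 0.2374% of all promoters, or 78 of them. Of the other genes in the lists used here, H2-M3 and H2-Q7 also held it. AGCAAC, a core of the X1 element, was found in H2-Eb1 alone of the 6 and in 14.79% of all promoters. GAAANNGAA, a core of the interferon-stimulated response element, was found in B2m and in 8.56% of all promoters, and its mirrored form GAANNGAAA, also chosen after the promoters were seen, in H2-K1 and H2-D1 and in 7.516%. GGGNNTTCC, a kappa B site, was found in H2-K1, H2-D1 and H2-Aa and in 5.82% of all promoters. These matches describe letters in the reference, not binding in these livers.

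Among the libraries, Exe 5 stood apart in immune genes, so that values without it are given beside the results that rest on it. Summed FPKM ran from 735200 to 820107 per mouse, and the relative depth of the mice, taken from the step size of genes with very few reads, lay between 0.977 and 1.015. Genes whose steps differed much between mice were not used, so this estimate could not show a large difference in depth. All 9 hepatocyte genes looked at, among them Alb, were measured in every mouse, with sums of 76220 to 97148 FPKM in the Con group and 88093 to 106166 FPKM in the Exe group.

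At the transcription level, the class I molecule was among the most abundant RNAs of the liver. B2m, the light chain shared by all class I molecules, lay between 1780 and 2247 FPKM in the Con group (median 2083) and between 1850 and 2246 FPKM in the Exe group (median 2099). It ranked between 41 and 50 among all genes in each mouse. H2-K1, a classical heavy chain, lay between 904 and 1091 FPKM in the Con group (median 1035) and between 1032 and 1196 FPKM in the Exe group (median 1054). H2-D1, the other classical heavy chain, lay between 376 and 481 FPKM in the Con group (median 411) and between 399 and 531 FPKM in the Exe group (median 426). For all 3 genes the groups overlapped, with Con 3 lowest for B2m and H2-K1 and Exe 5 highest for H2-K1 and H2-D1. These 3 genes varied little from mouse to mouse, with a coefficient of variation over the 12 mice of 6.92% for B2m, 6.61% for H2-K1 and 10.7% for H2-D1.

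The peptide transporter and the transactivator of class I were far lower. Tap1 lay between 8.16 and 13.15 FPKM in the Con group (median 11.4) and between 8.49 and 14.91 FPKM in the Exe group (median 9.88). Tap2 lay between 12.11 and 15.64 FPKM in the Con group (median 14.6) and between 12.27 and 16.23 FPKM in the Exe group (median 13.9). Nlrc5 lay between 2.21 and 4.28 FPKM in the Con group (median 2.90) and between 3.10 and 3.93 FPKM in the Exe group (median 3.25). The groups overlapped for each of the 3 genes, and Exe 5 was the highest of the 12 mice for Tap1 and Tap2. Of the 6 Exe mice, 1 was above the Con median for Tap1, 2 for Tap2 and all 6 for Nlrc5.

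The class II genes lay below the class I chains and differed much more between mice. Cd74, the invariant chain, lay between 46.3 and 120.7 FPKM in the Con group (median 69.7) and between 52.9 and 117.6 FPKM in the Exe group (median 59.3). H2-Aa, the alpha chain, lay between 21.9 and 54.9 FPKM in the Con group (median 33.4) and between 25.5 and 62.7 FPKM in the Exe group (median 29.5). H2-Ab1, its beta chain, lay between 17.3 and 42.5 FPKM in the Con group (median 27.9) and between 19.3 and 46.8 FPKM in the Exe group (median 22.5). H2-Eb1, the other beta chain, lay between 8.74 and 19.3 FPKM in the Con group (median 12.5) and between 8.46 and 24.8 FPKM in the Exe group (median 11.6). Con 2, Con 4 and Exe 5 held the 3 highest values of all 4 genes, and the other 9 mice overlapped between groups. The highest mouse was between 2.60 times (Cd74) and 2.93 times (H2-Eb1) the lowest. For the class I genes this ratio ran from 1.26 times (B2m) to 1.94 times (Nlrc5). The alpha chain H2-Ea, which pairs with H2-Eb1 in other haplotypes, was not analysed here.

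**Figure D1:**
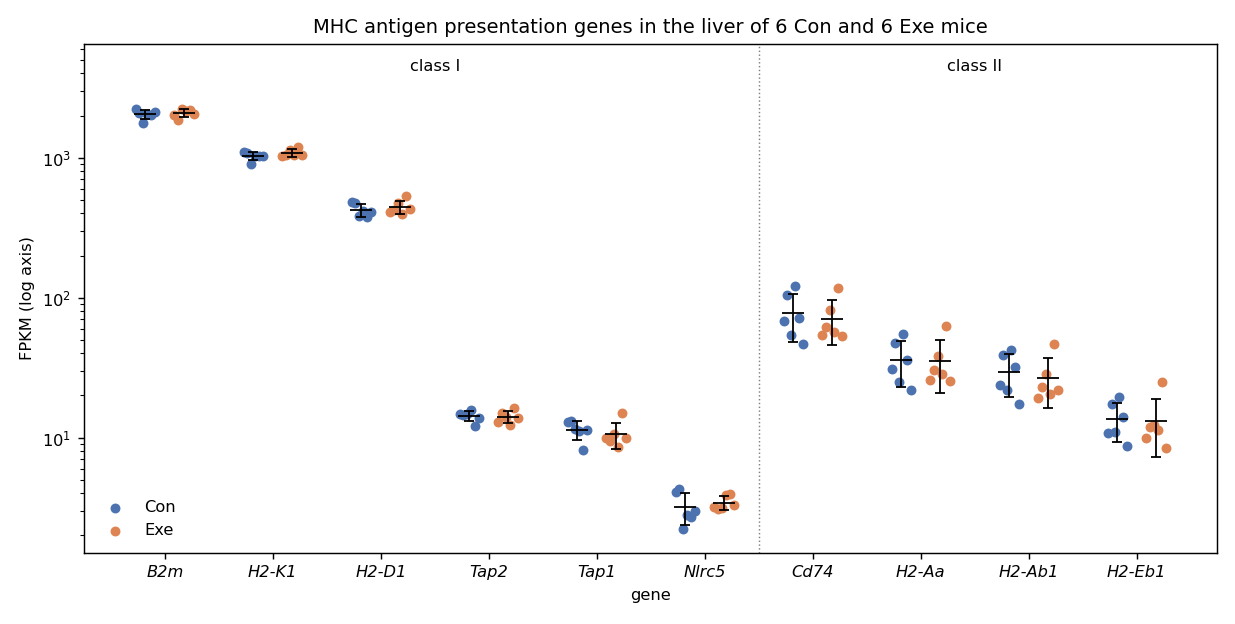
FPKM (log axis) of the 10 genes in each of the 6 Con mice and 6 Exe mice, with 1 point per mouse and bars for the mean ± SD of each group (n = 6). The groups overlap for every gene, and the class II genes spread more widely than the class I genes, with Exe 5 as the highest point of the Exe group for all 4.

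Within class I the order of the levels was B2m, H2-K1, H2-D1, Tap2, Tap1 and Nlrc5 in every one of the 12 mice. Neighbours in this order did not overlap over the mice, except Tap2 and Tap1, where the lowest Tap2 (12.11 FPKM) was below the highest Tap1 (14.91 FPKM). Within class II the order was Cd74, H2-Aa, H2-Ab1 and H2-Eb1 in every mouse, although all 3 pairs of neighbours overlapped between mice. FPKM is per length, so these levels can be set side by side between genes. The liver had between 18.9 times (Con 4) and 46.8 times (Con 6) as much H2-K1 as H2-Aa, with Exe 5 at 19.1 times.

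Within a mouse the class II subunits kept steadier proportions than their levels did between mice. The ratio of H2-Aa to its partner H2-Ab1 lay between 1.123 and 1.391, with a coefficient of variation of 6.95% over 12 mice, while H2-Aa itself varied by 36.4%. The ratio of Cd74 to H2-Aa lay between 1.88 in Exe 5 and 2.20 in Con 2, with a coefficient of variation of 4.87%. For class I, the ratio of B2m to H2-K1 lay between 1.76 and 2.06 and that of H2-K1 to H2-D1 between 2.25 and 2.75. H2-Q10, a class I heavy chain that hepatocytes make and secrete, was higher than H2-K1, at 1.59 to 2.02 times its level. With H2-Q10 counted in, B2m came to 0.578 to 0.672 FPKM per FPKM of the summed H2-K1, H2-D1 and H2-Q10. Tap2 was between 1.09 times (Exe 5) and 1.61 times (Exe 2) Tap1. For each of these ratios the ranges of the Con and Exe groups overlapped.

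To compare the groups, log2(FPKM + 1) was fitted with limma across the 10241 genes that passed the filter, and p-values were adjusted over all of them with the Benjamini-Hochberg method. No difference between the Exe and the Con group was detected for any of the 10 genes. At an adjusted p of at most 0.05, 0 of the 10 were called, where 0% of all tested genes were, and at an unadjusted p under 0.05 again 0 of the 10, where 6.21% of all tested genes were (636 genes, 437 of them or 4.27% of all tested genes higher in the Exe group). The adjusted p of the 10 genes lay between 0.929 and 0.992. Over all tested genes the median log2 fold change was 0.016. The study itself, with a test made for counts, did call genes as different between the groups.

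The 95% intervals show how large a difference these mice leave possible. For H2-K1 the fold change of the Exe over the Con group was 1.055 (95% CI 0.96 to 1.16, limma adjusted p = 0.929 with Benjamini-Hochberg, exact two-sided permutation p = 0.201). For H2-D1 it was 1.047 (0.922 to 1.19), and for B2m 1.01 (0.912 to 1.13). These 3 estimates lay above 1, although that of H2-D1, a log2 fold change of 0.067, went to -0.011 under quantile normalization and to 0.014 without Exe 5. For Tap1 the fold change was 0.928 (0.77 to 1.120) and for Tap2 0.986 (0.884 to 1.100), where Tap2 turned to a log2 fold change of 0.015 when the libraries were scaled to equal sums. For Nlrc5 it was 1.07 (0.903 to 1.27). All 6 intervals included 1.

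The class II estimates lay below 1 with wide intervals. The fold change was 0.975 for H2-Aa (95% CI 0.675 to 1.41), which turned to a log2 fold change of 0.00071 with libraries scaled to equal sums. It was 0.91 for H2-Ab1 (0.639 to 1.297), 0.95 for H2-Eb1 (0.674 to 1.34) and 0.926 for Cd74 (0.643 to 1.33). The smallest adjusted p of the 4 was 0.961 (limma with Benjamini-Hochberg, H2-Ab1) and the smallest exact two-sided permutation p was 0.626. These estimates rested on single mice. Without Exe 5 the log2 fold changes of H2-Aa, H2-Ab1, H2-Eb1 and Cd74 were -0.21, -0.31, -0.26 and -0.27, and without Con 4 they were 0.097, -0.019, 0.033 and 0.031. Tap1 went from -0.11 to -0.20 without Exe 5 (adjusted p = 0.591 from limma).

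**Figure D2:**
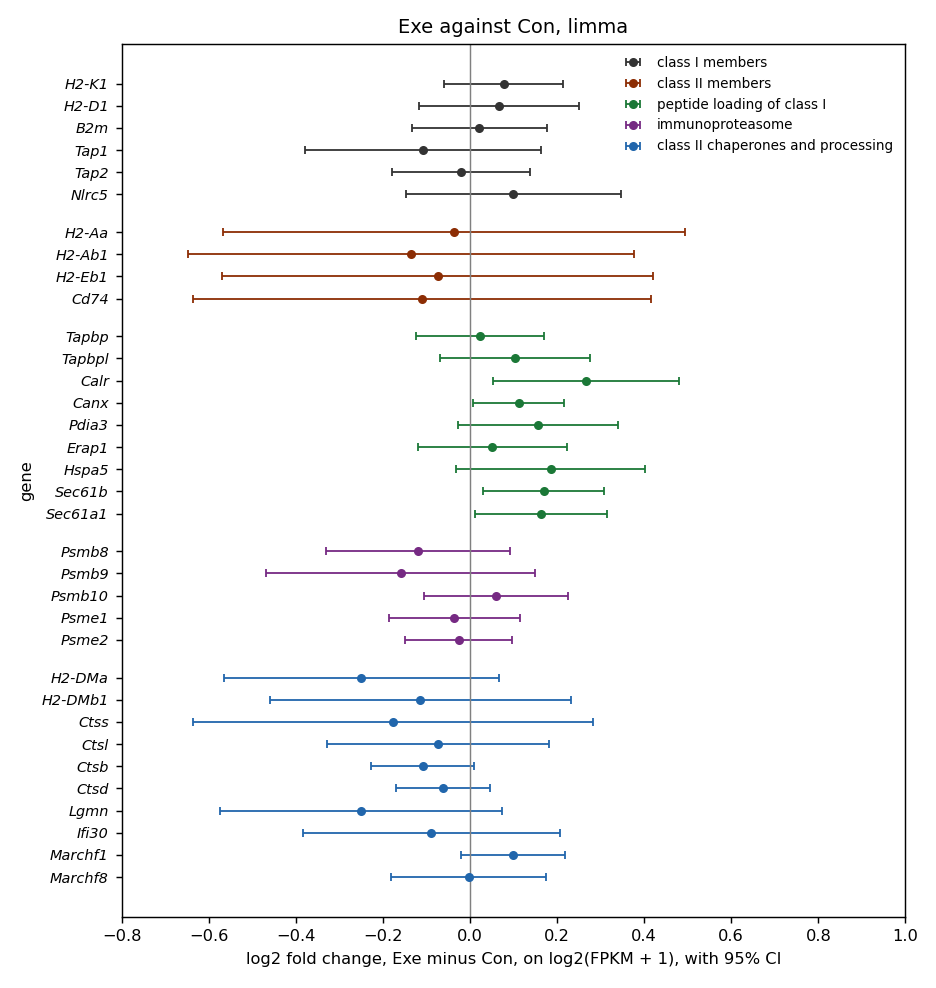
Log2 fold change of the Exe over the Con group on the log2(FPKM + 1) scale, with 95% CI from limma (n = 6 and 6), for the 10 genes and 3 lists of genes around them. The intervals of all 10 genes include 0 and are widest for class II, and those of Calr, Canx, Sec61b and Sec61a1 lie above 0 without adjustment.

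The 4 class II genes rose and fell together from mouse to mouse. Over the 12 mice, Pearson's r of log2(FPKM + 1) was between 0.94 (H2-Eb1 and Cd74) and 0.989 (H2-Aa and Cd74) for the 6 pairs, and Spearman's rho between 0.895 and 0.972. Of 45 pairs of the 10 genes, 13 passed an adjusted p of 0.05 by Pearson's r and 10 by Spearman's rho (100000 permutations, Benjamini-Hochberg over 45 pairs), and all 6 class II pairs were among both. For H2-Aa and Cd74 the permutation p was 1e-05, the smallest that 100000 permutations can give (adjusted p = 9e-05). Without the 2 mice farthest from the median, Con 4 and Exe 5, r was still between 0.899 and 0.989. Within groups it was between 0.967 and 0.995 in the Con group and between 0.932 and 0.993 in the Exe group. All 4 genes were read in the same library of a mouse, so that anything that changes a whole library is shared between them.

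The class I genes moved together less tightly. Of their 15 pairs, 7 passed by Pearson's r and 4 by Spearman's rho. H2-K1 and H2-D1 had r = 0.823 (permutation p = 0.00038, adjusted p = 0.00244), with rho = 0.804 and with r = 0.81 without Con 3 and Exe 5. Tap1 and Tap2, the subunits of the transporter, had r = 0.779, which fell to 0.569 without Con 5 and Exe 5. The r of Nlrc5, the transactivator, was 0.727 with H2-K1, 0.705 with H2-D1 and 0.691 with B2m, against 0.387 with Tap1 and 0.0575 with Tap2. The differences between these coefficients were not tested. The first 3 were also taken without the 2 mice farthest from the median of H2-K1, H2-D1 or B2m. They were then 0.449 (without Con 3 and Exe 5), 0.605 (without Con 1 and Exe 5) and 0.526 (without Con 3 and Exe 2). B2m and Tap2 had the lowest r of all 45 pairs, at -0.041.

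Between the classes, 0 of 24 pairs passed by either coefficient over the 12 mice, with r between 0.197 (B2m and H2-Eb1) and 0.613 (H2-K1 and H2-Aa). The relation of H2-K1 to the class II genes rested on Exe 5 and Con 3. H2-K1 and H2-Aa had rho = 0.692 (adjusted permutation p = 0.0603), and r was 0.325 without these 2 mice. Within the Exe group their r was 0.971 (exact permutation p = 0.00556, n = 6) and within the Con group 0.464 (exact permutation p = 0.406, n = 6). Without Exe 5 no pair between the classes had an r over 0.41.

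**Figure D3:**
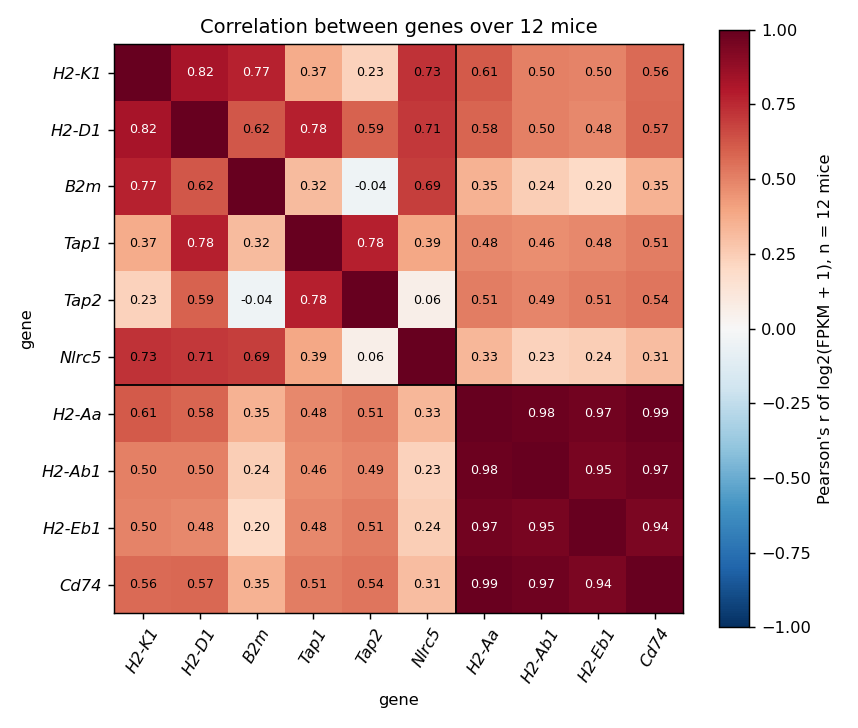
Pearson's r of log2(FPKM + 1) over 12 mice for the 45 pairs of the 10 genes, with class I and class II set apart by lines. The class II block runs from 0.94 to 0.989, the class I block from -0.041 to 0.823 and the block between the classes from 0.197 to 0.613.

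**Figure D4:**
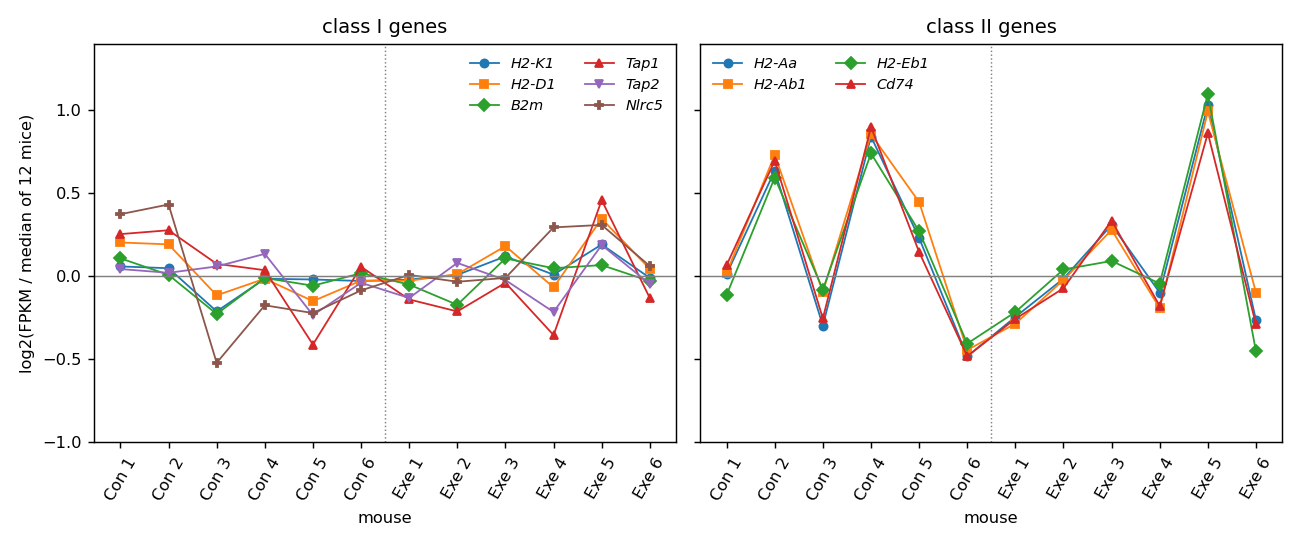
Level of each gene in each mouse relative to its median over the 12 mice, on a log2 scale, for class I (left) and class II (right). The class II lines run together, with peaks at Con 2, Con 4 and Exe 5 and the lowest point at Con 6 for 3 of the 4 genes, while the class I lines stay nearer to 0.

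Among the 10231 other tested genes, those whose pattern over the 12 mice was most like the mean standardized level of class II were H2-DMb1 (r = 0.913), a chain of the H2-DM molecule that edits class II peptides, then Marco (0.884), a scavenger receptor of macrophages, Serpina3g (0.878), Arl8a (0.877), a small GTPase of lysosomes, and Ptgs1 (0.87), a cyclooxygenase. H2-DMb1 lay between 2.94 and 6.36 FPKM and was highest in Exe 5, and its r without Exe 5 was 0.867. Marco lay between 3.71 and 21.9 FPKM, also with Exe 5 highest, and its r without Exe 5 was 0.82. Those most like class I were Pomp (r = 0.898), a proteasome assembly factor, and Nfkbiz (0.874), a member of the NF-kappa B inhibitor family. Next came Ifi30 (0.866), a lysosomal thiol reductase that opens antigens for class II, Gbp3 (0.863), an interferon-induced GTPase, and Dap (0.862). These coefficients are descriptions over 12 mice that share libraries, with no test.

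In whole liver RNA, fewer cells of a type and less RNA per cell cannot be told apart, so the levels of the cell types that make class II were set beside the class II genes. The 12 Kupffer cell genes, among them Clec4f, Vsig4 and Timd4, were measured in every mouse and summed to between 317 and 579 FPKM in the Con group (median 382) and between 229.8 and 525 FPKM in the Exe group (median 321). The 3 mice with high class II summed to 579 FPKM (Con 2), 413 FPKM (Con 4) and 525 FPKM (Exe 5). Con 1 and Exe 3 were above Con 4, at 480.0 and 445 FPKM, although the sum of the 4 class II genes was 133 FPKM for Con 1 and 160 FPKM for Exe 3, against 237 FPKM for Con 4. All 12 genes had log2 fold changes below 0, with a median of -0.21 against 0.016 over all tested genes, and 0 passed an unadjusted p of 0.05 from limma, although 5 did without Exe 5, where the count over all 10241 tested genes was 910 in place of 636. With the mean log2 level of these genes as a covariate, an alternative added after the data were seen, all 4 class II estimates turned to above 0, with log2 fold changes of 0.077 to 0.19 and adjusted p from limma of 0.988 to 0.992. Their part in the class II levels was not tested further.

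B cells left little RNA in these livers. Of the 8 B cell genes, 1 had a mean of at least 1 FPKM, and Ms4a1, the gene of CD20, was between 0 and 0.48 FPKM. The 8 genes summed to between 2.85 and 5.81 FPKM in the Con group, with Con 4 highest and Con 2 at 3.86 FPKM, and to between 3.96 and 8.08 FPKM in the Exe group, with Exe 5 highest and the next at 5.12 FPKM. The 10 dendritic cell genes summed to between 3.72 and 5.34 FPKM and between 3.68 and 5.54 FPKM, with 2 of them, Cd209a and Ccr7, at 0 in some mouse. With the B cell level as a covariate, H2-Ab1 passed an unadjusted p of 0.05 (log2 fold change -0.39, limma adjusted p = 0.804). It was the 1 member that did, where 630 of all 10241 tested genes did. Ciita, the class II transactivator, lay between 0.19 and 0.37 FPKM in the Con group and between 0.24 and 0.47 FPKM in the Exe group, highest in Exe 5, and was too low to be tested.

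Exe 5 was the highest of the 12 mice for 7 of the 10 genes: H2-K1, H2-D1, Tap1, Tap2, H2-Aa, H2-Ab1 and H2-Eb1. It was the highest mouse for 11.6% of all tested genes. Against the median of the other 11 mice, its level was 2.07 times for H2-Aa, 2.02 times for H2-Ab1, 2.21 times for H2-Eb1 and 1.91 times for Cd74. The class I genes of Exe 5 stood less far out, at 1.41 times for Tap1, 1.28 times for H2-D1, 1.25 times for Nlrc5, 1.16 times for Tap2, 1.15 times for H2-K1 and 1.055 times for B2m. Con 4 came close to it for class II, with 120.7 FPKM of Cd74 against 117.6 FPKM in Exe 5.

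Of the 25 interferon-stimulated genes in the list, 11 were highest in the same mouse, and the genes of this paragraph were chosen after their values were seen. Tgtp1, an interferon-inducible GTPase, was at 17.7 FPKM in Exe 5 and at 2.02 to 2.98 FPKM in the other 11 mice. Igtp, of the same kind, was at 35.8 FPKM against 11.3 to 16.8 FPKM, and the chemokine Cxcl9 at 8.63 FPKM against 1.87 to 3.76 FPKM. Irf1, an interferon regulatory factor, was at 25.3 FPKM against 14.3 to 25.1 FPKM. Each of these 4 genes was highest in Exe 5, by a wide gap for all but Irf1. Isg15, Ifit1 and Ifit3 of the same list were highest in another mouse. Isg15 was at 25.7 FPKM in Exe 5 and reached 26.6 FPKM in Con 1. Ifng itself was listed between 0 and 0.12 FPKM over the 12 mice, with Exe 5 highest.

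**Figure D5:**
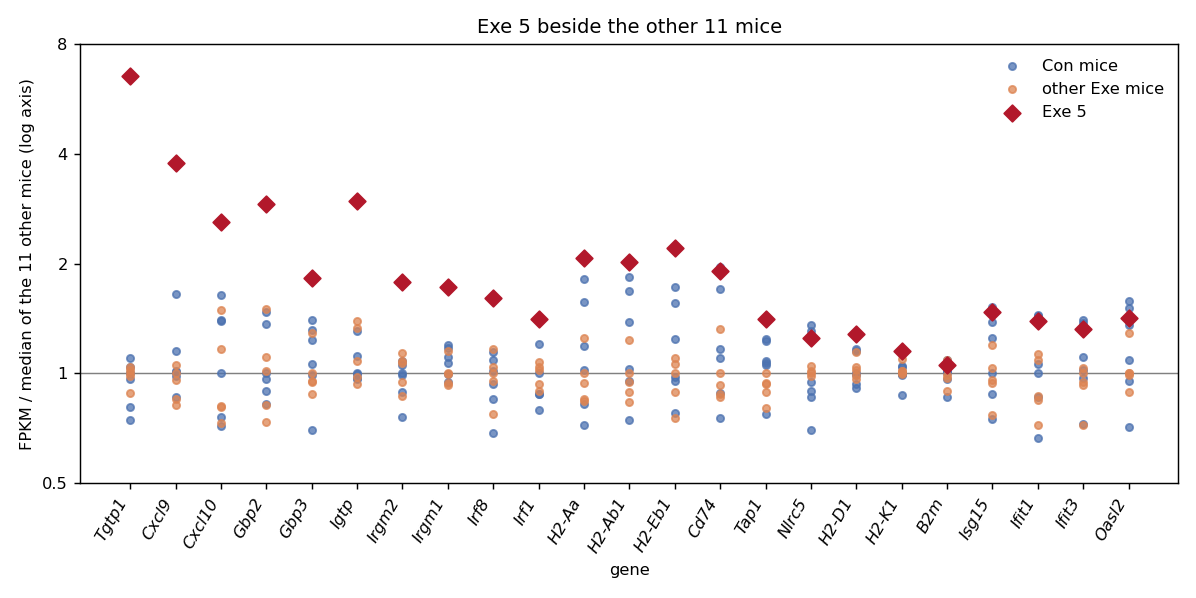
FPKM in each mouse divided by the median of the 11 mice other than Exe 5 (log axis), for interferon-stimulated genes, 2 interferon regulatory factors and 9 of the 10 MHC genes. The interferon-stimulated genes shown were chosen and ordered after their values were seen, and Exe 5 was highest for 11 of the 25 in the list. Exe 5 (diamonds) lies above all other mice from Tgtp1 to H2-Eb1, and within or at the edge of their range for Cd74, Nlrc5, B2m, Isg15, Ifit1, Ifit3 and Oasl2.

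Other lists stood high in Exe 5 too, and their part in its MHC levels was not tested. The 10 T and NK cell genes summed to 9.73 FPKM there, against 4.18 to 5.92 FPKM in the other Exe mice and 3.40 to 6.11 FPKM in the Con group. The 6 red blood cell genes summed to 1290 FPKM, against at most 912 FPKM in the other Exe mice and 903 FPKM in the Con group. The 10 pancreatic acinar genes, of which 8 were at 0 in some mouse, summed to 32.4 FPKM, against 13.1 to 16.8 FPKM in the other Exe mice and 8.56 to 17.0 FPKM in the Con group, with Con 4 highest. The 9 acute-phase genes summed to 39164 FPKM, against 6896 to 13507 FPKM in the other Exe mice. In the Con group they summed to between 6574 FPKM (Con 4) and 38769 FPKM (Con 1). H2-Aa was at 62.7 FPKM in Exe 5, 30.9 FPKM in Con 1 and 54.9 FPKM in Con 4, with a median of 30.6 FPKM over all mice.

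The genes around class I presentation differed between the lists. Of 9 tested genes of peptide loading, 9 had estimates above 0 and 4 passed an unadjusted p of 0.05 from limma, all higher in the Exe group, where 4.27% of all tested genes were. The median log2 fold change was 0.16, against 0.016 over all tested genes. Calr, the chaperone calreticulin, lay between 424 and 627 FPKM in the Con group (median 491) and between 515 and 666 FPKM in the Exe group (median 601). Its log2 fold change was 0.27 ± 0.099 (SE, limma adjusted p = 0.793). Canx, the chaperone calnexin, lay between 64.8 and 73.0 FPKM and between 69.4 and 78.0 FPKM (log2 fold change 0.11 ± 0.049), so that the groups overlapped, as they did for Calr. Sec61b and Sec61a1, subunits of the channel through which chains enter the endoplasmic reticulum, had log2 fold changes of 0.17 ± 0.065 and 0.16 ± 0.071. By the exact two-sided permutation test Calr, Canx and Sec61b passed without adjustment, and Sec61a1 did not (exact p = 0.0519). The share of all tested genes past this test is not known. No gene of the list passed the adjusted threshold, 0 of the 9 passed even without adjustment under quantile normalization, and 2 did without Exe 1, Exe 2 or Exe 5. Calr, Canx and the Sec61 channel also serve other proteins that enter the endoplasmic reticulum. Tapbp, the tapasin that bridges class I to the transporter and serves class I, was at 32.3 to 37.4 FPKM and 31.9 to 42.3 FPKM, with a log2 fold change of 0.023 ± 0.068.

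Of the other class I chains, 16 genes were tested, 9 with estimates above 0 and 7 below, and a median log2 fold change of 0.020. H2-Q10 lay between 1639 and 2114 FPKM in the Con group (median 1838) and between 1724 and 2112 FPKM in the Exe group (median 1831). H2-T23, the non-classical chain that presents leader peptides to NK cell receptors, lay between 185 and 229 FPKM and between 186 and 229 FPKM. Raet1e, a stress ligand of the NKG2D receptor with a class I fold, was the single gene of this list past an unadjusted p of 0.05 from limma, 1 of 16 where 6.21% of all tested genes were. By the exact two-sided permutation test Azgp1, a secreted glycoprotein with a class I fold, also passed (exact p = 0.0476, log2 fold change 0.078). The groups of Azgp1 overlapped, and the share of all tested genes past this test is not known. Raet1e lay between 4.16 and 7.92 FPKM in the Con group (median 6.53) and between 1.92 and 6.30 FPKM in the Exe group (median 3.90), with a log2 fold change of -0.57 ± 0.19 (limma adjusted p = 0.793). The groups of Raet1e overlapped.

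The inducible subunits of the immunoproteasome, which cut peptides suited to class I, overlapped between the groups. Of 5 tested genes, 1 had an estimate above 0 and 4 below, and 0 passed an unadjusted p of 0.05 from limma. Psmb9 lay between 19.6 and 34.0 FPKM in the Con group and between 20.2 and 34.9 FPKM in the Exe group, and Psmb8 between 27.5 and 38.0 FPKM and between 24.9 and 36.1 FPKM. Their log2 fold changes were -0.16 ± 0.14 and -0.12 ± 0.098. Exe 5 was the highest Exe mouse for both, and for Psmb9 the highest of the 12.

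Of the 10 tested genes of class II loading and processing, 1 had an estimate above 0 and 9 below, for a median log2 fold change of -0.098, and 0 passed an unadjusted p of 0.05 from limma. By the exact two-sided permutation test 2 of them passed without adjustment, Marchf1 (exact p = 0.0325) and Ctsb, a lysosomal cathepsin (exact p = 0.0455, log2 fold change -0.11). This test was not run on all tested genes, so there is no share to set beside the 2 calls. The lowest was Lgmn, a lysosomal protease, with 31.2 to 45.6 FPKM in the Con group and a log2 fold change of -0.25 ± 0.15. Its Exe values spanned the whole Con range, from 25.7 FPKM up to Exe 5, the highest of the 12 mice. Ctss, the cathepsin that trims the invariant chain, had 27.9 to 60.4 FPKM and 23.3 to 55.5 FPKM, with a log2 fold change of -0.18 ± 0.21. The highest was Marchf1, the ligase that removes class II from the cell surface, with 1.97 to 2.48 FPKM and 2.31 to 2.64 FPKM and a log2 fold change of 0.099 ± 0.055. Among 18 tested regulators, 14 had estimates above 0 and 4 below, with a median of 0.065 and 0 past an unadjusted p of 0.05 from limma. Rfxank, a subunit of the X box complex, was highest at 0.15 ± 0.10, and Ifngr2, a chain of the interferon gamma receptor, lowest at -0.17 ± 0.12. Irf1 had a log2 fold change of 0.060 ± 0.13. The 25 interferon-stimulated genes had 13 estimates above 0 and 12 below, with a median of 0.0084 and 0 past the unadjusted threshold, from Tgtp1 at 0.44 ± 0.34 down to Oas1a at -0.23 ± 0.13.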

How the data were processed

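RNA was sequenced from the livers of 6 Con and 6 Exe mice. The authors filtered the reads, mapped them to GRCm39 with HISAT and deposited FPKM with 2 decimals for 16821 genes. Bowtie2 and mm10 also stand in the submitters' processing notes, with no role given. The FPKM tool and any scaling between mice are not given in the sources used here. The study's own test was made for counts. FPKM are not counts, so log2(FPKM + 1) was fitted here with limma 3.58.1 in R 4.3.3 (lmFit, eBayes with trend), with Python 3.11.15, pandas 2.3.3 and scipy 1.17.1 for the rest. A pseudocount of 1 understates the change of low genes. The fit was tested on simulated data. The depth in reads is unknown, so the spread between mice is the only error. Relative depth was estimated from 18 genes whose FPKM moved in whole steps of similar size between mice (largest standard error 0.0086). This choice of genes keeps the estimates close together.

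The members and lists were chosen with earlier results of these data known. Named genes were the 10 members, in each pathway list the genes past an unadjusted p of 0.05 or else the highest and lowest log2 fold change, Ciita, Irf1, Ifng, H2-Ea, Psmb8, Psmb9, Tapbp and Ctss, and the 5 genes most like each class. A further gene of this rule is not reported here. H2-Q10, H2-T23, Tgtp1, Igtp, Cxcl9, Isg15, Ifit1 and Ifit3 were named after their values were seen, as were Azgp1 and Ctsb. The members and the tested genes of the lists, but not all genes, were also tested singly by an exact two-sided permutation test over the 924 divisions of 12 mice. Same-numbered Con and Exe mice did not deviate together (correlations from -0.48 to 0.16), so the numbers were not used as pairs. Over protein-coding transcripts of GENCODE M21, 9 of the 10 genes shared 0% of their 150-base stretches with another gene, and H2-D1 1.54%, with H2-Q1. The alternatives were another pseudocount, no filter, a stricter filter, quantile normalization, equal FPKM sums, robust moderation, a replicate block, covariates for B cells and acute-phase genes, and each mouse left out. Added after seeing the data were a Kupffer cell covariate, Con 4 and Exe 5 left out together, and the 2 motifs named so.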

Additional observations from a re-analysis of the deposited data

Results flagged for a closer look

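Dixon's ratio was computed on FPKM, not on the log2 scale of the fits, for the 10 genes and 16 lists in both groups. Of the 52 sets, 10 had a mouse far from the other 5. For normally distributed values chance gives about 1 in 20, or 2.6 sets. Whether FPKM follow that distribution was not tested, so the number of flags can depend on the scale. The sets share mice and libraries, so they are not independent. In the Con group, H2-K1 was low in Con 3, at 904 FPKM against 1027 to 1091 FPKM in the other Con mice. The other 9 were all Exe 5 in the Exe group. Among the MHC genes, Exe 5 had 14.9 FPKM of Tap1, where the other Exe mice had 8.49 to 10.6 FPKM, 62.7 FPKM of H2-Aa against 25.5 to 38.0 FPKM, 46.8 FPKM of H2-Ab1 against 19.3 to 28.5 FPKM, and 24.8 FPKM of H2-Eb1 against 8.46 to 12.3 FPKM. Cd74 was not among them, although Exe 5 was the highest Exe mouse at 117.6 FPKM. Among the lists, the immunoproteasome genes summed to 387 FPKM in Exe 5 against 314 to 328 FPKM, the B cell genes to 8.08 FPKM against 3.96 to 5.12 FPKM, and the T and NK cell genes to 9.73 FPKM against 4.18 to 5.92 FPKM. The pancreatic acinar genes summed to 32.4 FPKM against 13.1 to 16.8 FPKM, and the acute-phase genes to 39164 FPKM against 6896 to 13507 FPKM. Which of these go together was not tested.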

How the results depend on the processing

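The 10 genes had 0 calls at an adjusted p of 0.05 in the main analysis and in all 23 alternatives, where their lowest adjusted p from limma was 0.541. Over all genes the count was 0, with 1 gene called when no filter was used. With the replicate block, 567 genes passed an unadjusted p of 0.05 and 0 an adjusted one, and no call on the 10 genes changed, while 2 of the 9 peptide loading genes passed the unadjusted threshold in place of 4. The unadjusted count of 636 genes went to 1068 without Con 4 and Exe 5, and from 418 (without Exe 2) to 910 (without Exe 5) with 1 mouse left out. Of these genes, 68.7% were higher in the Exe group, against 56.8% under quantile normalization and 88.1% with equal FPKM sums. Of the 10 genes, 1 passed an unadjusted p of 0.05 with a B cell covariate (H2-Ab1) and 1 with a Kupffer cell covariate (H2-D1, log2 fold change 0.15, limma adjusted p = 0.874). Of all 10241 tested genes, 630 passed the same threshold with the B cell covariate and 557 with the Kupffer cell covariate. Within the Con group 6 pairs of genes passed and within the Exe group 11, instead of 13. The pairs of the Exe group were not all among the 13. H2-K1 with each of the class II genes and H2-D1 with H2-Ab1 passed in the Exe group only, and H2-Ab1 with H2-Eb1 did not pass there.

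Of 230 log2 fold changes of the 10 genes under alternatives, 23 changed sign. With the Kupffer cell covariate they were 0.013 for Tap1, 0.020 for Tap2, 0.19 for H2-Aa, 0.077 for H2-Ab1, and 0.12 for H2-Eb1 and Cd74. Under quantile normalization H2-D1 went to -0.011, Tap2 to 0.0050 with the acute-phase covariate, and with equal sums Tap2 to 0.015 and H2-Aa to 0.00071. With 1 mouse left out, the ranges of the genes that changed sign were -0.018 to 0.055 (B2m), -0.063 to 0.015 (Tap2), -0.21 to 0.097 (H2-Aa), -0.26 to 0.033 (H2-Eb1) and -0.27 to 0.031 (Cd74). The causes were not tested. FPKM without counts give no counting error, and with 6 mice per group the class II intervals reach from a 0.639-fold to a 1.41-fold level.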

Other observations

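Markers of the other liver cells were read in the same fit, none of them past an adjusted p of 0.05 (limma with Benjamini-Hochberg). Of all tested genes, 6.21% passed an unadjusted p of 0.05 from limma, and 4.27% did so with a higher level in the Exe group. The sinusoidal endothelium, which also takes up and presents antigen, had 4 of 8 tested marker genes above 0 and 4 below, around a median of 0.033 (log2 fold change) with 0 past an unadjusted p of 0.05 from limma, the threshold used in this paragraph, and its summed level was 69.3 to 114.3 FPKM in the Con group and 81.5 to 99.8 FPKM in the Exe group. Exe 5, at 87.2 FPKM, was within the range of both groups. The 8 stellate cell genes had 1 estimate above 0 and 7 below, with a median of -0.12 and 0 past the unadjusted threshold. Of the 9 hepatocyte genes, 8 had estimates above 0, with a median of 0.082, and 2 passed the unadjusted threshold: Alb, which encodes albumin, at 0.34 ± 0.12 (SE), and Cps1, which catalyses the entry step of the urea cycle, at 0.29 ± 0.087 (SE). The 9 acute-phase genes all had estimates below 0, with a median of -0.31 and 0 past the unadjusted threshold. Of the 5 tested red blood cell genes, 4 had estimates above 0, with a median of 0.75, and 1 passed the unadjusted threshold (Hbb-bs, 0.83 ± 0.38, SE). Of the 2 dendritic cell genes that could be tested, Zbtb46 had a log2 fold change of 0.19 ± 0.061 and Batf3 of -0.39 ± 0.13 (SE), both past the unadjusted threshold and in opposite directions.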
